A study of Mus musculus with 188 samples.

Results

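The inbred strains KK/HlJ, NOD/ShiLtJ and NON/ShiLtJ were compared in the aorta with the other classical inbred strains of a mouse diversity panel. These 3 strains were taken by their strain label and contributed 6 arrays, and 3 of the 94 strains in the series. The comparison group was every strain whose label did not begin with AXB, BXA, BXD or BXH, the recombinant inbred families, which left 25 strains with 49 arrays. Each of KK, NOD and NON had 2 arrays, called array 1 and array 2 below. Of the other strains, C57BL/6J had 3 arrays, BUB/BnJ and I/LnJ had 1 each, and 129X1/SvJ, A/J, AKR/J, BALB/cJ, BTBR T<+> tf/J, C3H/HeJ, C57L/J, C58/J, CBA/J, CE/J, DBA/2J, FVB/NJ, LG/J, LP/J, MA/MyJ, NZW/LacJ, PL/J, RIIIS/J, SEA/GnJ, SJL/J, SM/J and SWR/J had 2 each. All mice were untreated wild-type males of 16 weeks on a chow diet with a 12 hr light cycle, and total RNA was hybridised to Affymetrix arrays for a genome-wide association study of aortic expression. Values are RMA levels on the log2 scale, in which a difference of 1 is a doubling of signal. Levels of different probe sets were not compared with each other.

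KK is a Japanese strain with polygenic obesity and insulin resistance, used as a model of type 2 diabetes. NOD is the classical model of autoimmune type 1 diabetes, in which T cells destroy the insulin-producing cells of the pancreas, and NON is a related strain, derived from the same outbred stock, that does not develop autoimmune diabetes but has impaired glucose tolerance. Diabetes and obesity act on the vessel wall through endothelial nitric oxide, matrix cross-linking and inflammation, and on the fat around the vessel through leptin, adiponectin and other adipokines. No measure of glucose or body weight was analysed here.

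The aorta label was checked on smooth muscle and endothelial genes. Acta2, the smooth muscle actin, was 12.67 and 12.89 in KK, 12.49 and 12.43 in NOD and 12.57 and 12.76 in NON, against 11.31 to 12.91 (median 12.47) in the 49 other arrays. Myh11, the smooth muscle myosin heavy chain, lay between 8.74 and 9.91 in the 6 arrays and between 7.37 and 10.12 in the others. Both genes lay within the range of the other strains in all 6 arrays. Ucp1, the uncoupling protein of brown fat, was above 12 in 5 of the 6 arrays and in all 49 other arrays, so the tissue on these arrays included brown fat around the vessel. In such bulk samples, fewer cells of a type and less RNA per cell cannot be told apart.

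Array 1 of KK and array 1 of NOD stood apart from their partners. The correlation across probe sets between the 2 arrays of a strain was 0.922 in KK, 0.959 in NOD and 0.987 in NON, and 847, 281 and 83 of the 22327 probe sets differed by more than 2 within the pair. KK array 1 lay above all 49 other arrays at 967 probe sets (4.33%) and below them at 1212 (5.43%), against 260 and 151 for KK array 2. NOD array 1 did so at 736 (3.30%) and 719 (3.22%), against 344 and 192 for NOD array 2. The 2 NON arrays were closer, with 169 and 166 for array 1 and 303 and 280 for array 2. The labels do not state whether a strain's arrays are of different mice. The tests therefore capture variation between arrays and between strain means, part of which may be technical. Results that rest on KK array 1 or NOD array 1 are given with and without that array, except where stated.

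The first question was which transcripts differed in KK, NOD and NON together from the 25 other strains, with 1 mean per strain. Leptin and several genes of the red cell were higher, and no transcript passed as lower. At a Benjamini-Hochberg adjusted p below 0.05 in limma, 8 of 22327 probe sets were called (0.0358%), 8 of them higher (0.0358%) and 0 lower. At an unadjusted p below 0.05, 952 probe sets passed (4.26%), 773 higher (3.46%) and 179 lower (0.802%). The called probe sets named 6 genes (Lep, Slc4a1, Trim10, Bpgm, Wasf1 and 1700020D05Rik), and the other 2 carried no single symbol. Those 2 had the smallest adjusted p, with differences of 1.98 (limma, adjusted p = 1.72e-05) and 1.27 (0.00014). In both, the means of KK, NOD and NON were above all 25 other strains. Without KK array 1 all 8 were kept among 13 called, and without NOD array 1, 6 were kept among 9. Leaving out the whole KK strain kept 2 of the 8 among 4 called, and none of the 6 named genes passed. Leaving out the NOD strain kept 6 among 8, and leaving out the NON strain kept 5 among 10.

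Lep encodes leptin, the adipocyte hormone that reports fat stores to the hypothalamus and rises with adiposity. Its level was 4.73 and 6.31 in the KK arrays, 5.92 and 3.72 in the NOD arrays and 4.33 and 4.68 in the NON arrays, against 2.90 to 4.77 (median 3.24) in the 49 other arrays. KK array 2 and NOD array 1 lay above every other array, and the other 4 overlapped with the upper end of the other strains. The difference was 1.57 ± 0.22 (log2, SE; 3 against 25 strains), or 2.96-fold higher (limma, adjusted p = 0.000808). By strain mean KK ranked 1, NOD 2 and NON 4 of 28, with LG/J, at 4.64, between NOD and NON. Without KK array 1 the difference was 1.83 (adjusted p = 0.000771), without NOD array 1 it was 1.20 (0.0755), and without the KK strain 1.28 (0.111).

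Lep was 1 of 12 measured genes in a list of 17 adipokines and adipocyte hormones, and it was the only member called. At an unadjusted p below 0.05, Lep and Angptl4 were higher, and none of the 12 was lower. The differences of 10 members were positive and of 2 negative, with a median of 0.36, against 51.3% positive and a median of 0.0045 over all probe sets. Angptl4, an inhibitor of lipoprotein lipase, was 11.78 and 11.48 in KK, 11.49 and 11.36 in NOD and 11.34 and 11.20 in NON, against a median of 10.99 (9.54 to 12.01) in the others, a difference of 0.52 that did not pass (adjusted p = 0.980). Adipoq, which encodes adiponectin, stayed between 11.92 and 12.35 in the 6 arrays, within the 11.48 to 12.53 of the others (difference 0.00). Retn, which encodes resistin, ran from 7.96 in KK array 2 to 10.23 in NOD array 2, inside the other strains' 6.70 to 10.65. The array medians of the list were 0.41 and 0.06 in KK, 0.56 and 0.39 in NOD and 0.43 and 0.33 in NON, against -0.73 to 0.37 in the other arrays, so 4 of the 6 arrays lay above all 49.

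**Figure D1:**
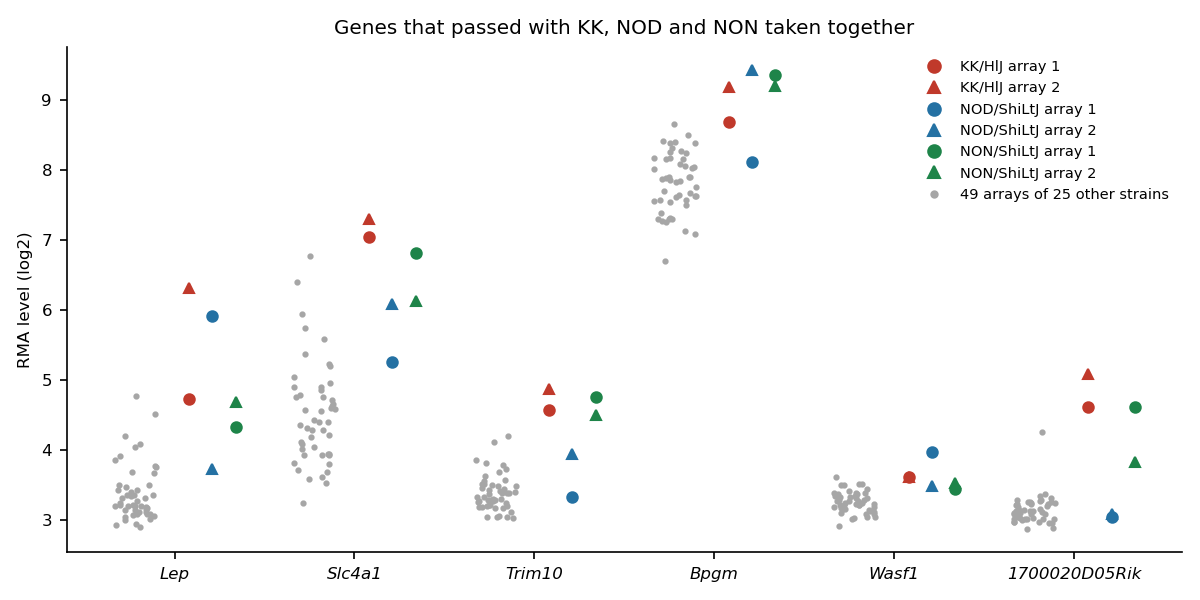
RMA levels (log2) of the 6 named genes called in KK, NOD and NON together. Coloured circles are array 1 and triangles array 2 of KK, NOD and NON, and grey dots are the 49 arrays of the 25 other strains. NOD lies inside the grey cloud for 1700020D05Rik, and KK lies above it in both arrays for Slc4a1, Trim10, Bpgm and 1700020D05Rik.

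Of the 6 named genes, 3 belong to the red cell. Slc4a1 encodes band 3, the anion exchanger of the red cell membrane. It was 7.04 and 7.29 in KK, 5.25 and 6.09 in NOD and 6.81 and 6.12 in NON, against 3.25 to 6.77 in the other arrays. Both KK arrays and NON array 1 were above every other array, while NOD overlapped with them. The difference was 1.93 ± 0.29, or 3.81-fold higher (limma, adjusted p = 0.00138), and BALB/cJ was the highest of the other strains. A second Slc4a1 probe set, with KK at 3.52 and 3.47, gave 0.00. Bpgm, the mutase that makes the bisphosphoglycerate by which red cells tune oxygen release, was 8.68 and 9.19 in KK, 8.11 and 9.43 in NOD and 9.36 and 9.19 in NON, with the other arrays between 6.69 and 8.66 (median 7.85). All but NOD array 1 were above the 49 other arrays. Bpgm rose by 1.15 ± 0.21, or 2.23-fold (adjusted p = 0.0287), and its other probe sets gave 1.05 (0.0523) and 1.13 (0.160).

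Trim10, a RING finger protein of erythroid differentiation, was 4.57 and 4.87 in KK, 3.32 and 3.94 in NOD and 4.75 and 4.50 in NON. The other arrays had a median of 3.32 and began at 3.03. KK and NON were above all of them and NOD was not. The 3 strains together were 0.94 ± 0.14 higher (1.92-fold, limma, adjusted p = 0.00174), while the difference of NOD alone was 0.25. Without KK array 1, Slc4a1, Bpgm and Trim10 all passed, with differences of 1.97, 1.24 and 0.99. Without NOD array 1 they passed as well, with 2.07, 1.37 and 1.04. Leaving out the whole KK strain gave 1.56 (adjusted p = 0.158) for Slc4a1, 1.18 (0.185) for Bpgm and 0.74 (0.171) for Trim10. With the erythroid marker score as a covariate the differences of the 3 genes were 0.97, 0.52 and 0.64, each with an adjusted p of 0.868. Slc4a1 is itself 1 of the 3 genes of that score.

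A list of 32 red cell genes, assembled after these results had been seen, had 27 measured members. In the 3 strains together 3 were called higher (Slc4a1, Bpgm and Trim10), 9 were higher at an unadjusted p below 0.05 and 0 lower. Over all probe sets 0.0358% were called higher, and at an unadjusted p below 0.05 3.46% were higher and 0.802% lower. The signs were mixed over the whole list, with 19 positive and 8 negative differences (51.3% positive over all probe sets), a median of 0.15 and a range from -0.71 to 1.93. Alas2, the first enzyme of haem synthesis in red cells, was 10.29 and 10.72 in KK, 9.91 and 10.06 in NOD and 9.97 and 9.52 in NON, against 5.63 to 10.16 (median 7.94). Its 3 strain means were the highest of the 28, and the difference of 1.93 did not pass over the wide spread of the other strains (limma, adjusted p = 0.899). Fech, which inserts iron in the last step of haem synthesis, lay between 9.40 and 10.13 in the 6 arrays and between 7.68 and 9.80 in the others (difference 0.92, adjusted p = 0.468), and of its other probe sets 1 gave 0.93 and the rest -0.05 and -0.02. Isg20, an exonuclease, was 8.35 and 8.24 in KK, 7.77 and 7.91 in NOD and 7.63 and 7.25 in NON (4.98 to 8.39 in the others), a difference of 1.39 that did not pass either.

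Gata1 and Tfrc, genes of red cell precursors, did not pass. Gata1, the transcription factor of erythroid precursors, lay between 3.06 and 3.87 in the 6 arrays and reached 3.77 in the others (difference 0.07). Tfrc, the transferrin receptor that precursors use for iron uptake, had a difference of -0.71 and was between 4.03 and 6.58, inside or below the other strains' 4.21 to 8.72. Hba-a1, an alpha globin, was between 12.99 and 13.39, against 12.12 to 13.32 in the others (difference 0.42, not passed). Another Hba-a1 probe set was 12.88 and 13.29 in KK, 12.78 and 13.20 in NOD and 12.82 and 13.03 in NON, against 7.07 to 13.10, with the 3 strain means the highest of the 28 and a difference of 2.47 that did not pass either (limma, adjusted p = 0.980). Its probes may be shared with the neighbouring alpha globin copy, so it is uncertain which copy was measured.

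The erythroid marker score, the mean centred level of the 3 measured markers Slc4a1, Alas2 and Hba-a1 out of 8, was 1.66 in KK, 1.02 in NOD and 1.17 in NON, and -1.26 to 0.69 in the 25 other strains. By array it was 1.48 and 1.84 in KK, 0.86 and 1.19 in NOD and 1.38 and 0.96 in NON, against -1.48 to 1.42 in the others. The difference was 1.43, with a p of 0.0003053 in a two-sided exact permutation test over strains, which is the smallest that the 3276 splits allow (adjusted over 9 scores, 0.00275). Slc4a1 was called above on the same strain means, and the lists were chosen with earlier results known. This p is therefore not independent of the calls above. The difference in score was 1.49 without KK array 1. The part of residual blood RNA in these differences was not tested.

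**Figure D2:**
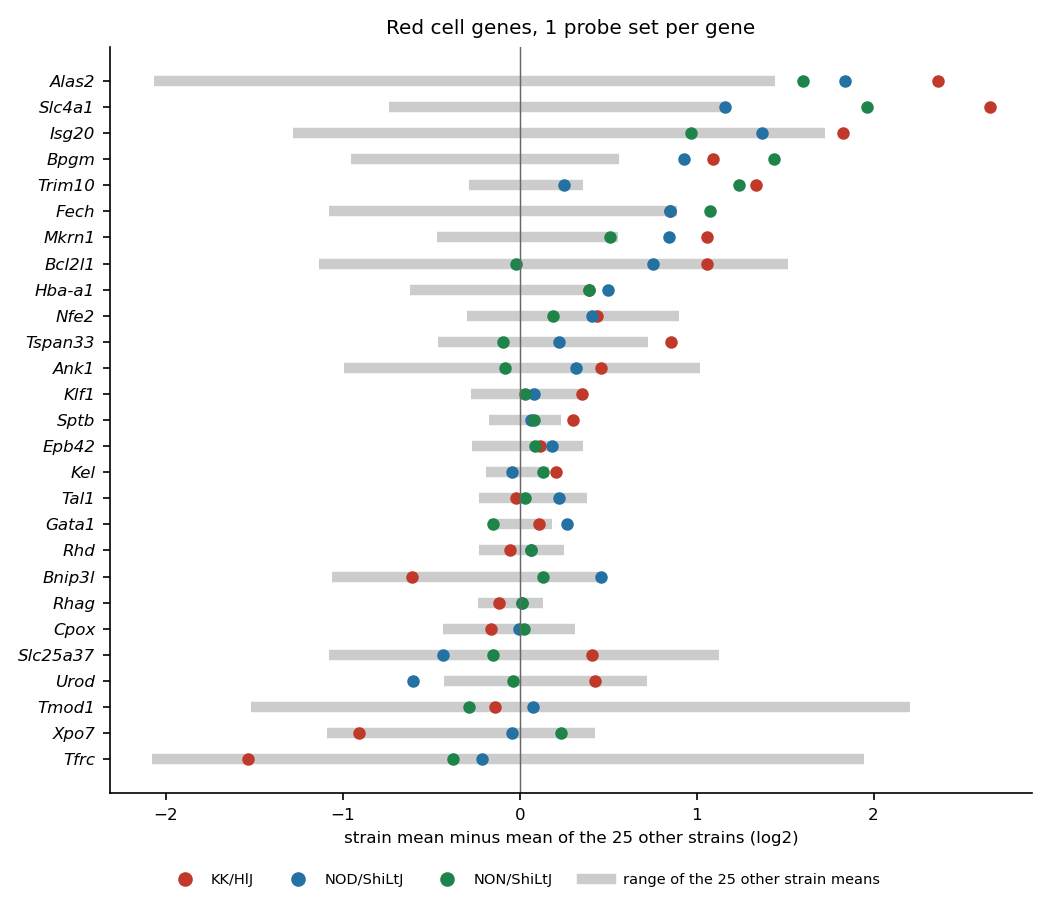
Strain mean minus the mean of the 25 other strains (log2) for 27 red cell genes. Coloured points are KK, NOD and NON and the grey bar is the range of the 25 other strain means. Slc4a1, Alas2, Bpgm and Fech have all 3 points to the right of 0, and all 3 lie beyond the grey bar for Alas2 and Bpgm.

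Promoter windows are shown for Trim10, Bpgm and Alas2, the red cell genes of this group for which RefSeq (build GRCm38.p6) gave one, because they moved or ranked together while differing in the words they hold. Each window is the 250 bases before the start on the plus strand. Capitals mark any of the GATA factor words AGATAA, its variant AGATAG, and also TGATAA with its variant TGATAG, and the word CCNCNCCC of erythroid Krüppel-like factors, on either strand. The windows lie at chr17:36869324-36869573 (Trim10), chr6:34476106-34476355 (Bpgm) and chrX:150547167-150547416 (Alas2).
Trim10: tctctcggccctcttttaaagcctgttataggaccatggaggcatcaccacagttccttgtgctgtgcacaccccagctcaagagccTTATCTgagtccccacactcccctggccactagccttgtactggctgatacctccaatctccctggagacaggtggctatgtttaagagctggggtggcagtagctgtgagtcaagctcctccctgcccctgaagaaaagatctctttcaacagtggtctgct
Bpgm: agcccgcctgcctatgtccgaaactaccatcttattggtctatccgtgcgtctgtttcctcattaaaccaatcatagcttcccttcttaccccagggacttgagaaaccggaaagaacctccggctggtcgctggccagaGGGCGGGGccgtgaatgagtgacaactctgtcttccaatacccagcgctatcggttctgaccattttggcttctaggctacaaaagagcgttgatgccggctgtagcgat
Alas2: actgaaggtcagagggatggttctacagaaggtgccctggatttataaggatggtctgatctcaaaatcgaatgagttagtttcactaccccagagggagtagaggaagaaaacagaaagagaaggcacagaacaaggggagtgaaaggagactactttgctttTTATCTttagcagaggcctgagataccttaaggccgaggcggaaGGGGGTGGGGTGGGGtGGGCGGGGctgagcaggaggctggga
The Trim10 window holds 1 GATA word on the minus strand, 163 bases before the start, and no CCNCNCCC. Bpgm has 1 CCNCNCCC and no GATA word. Alas2 has 1 GATA word, 86 bases before the start, and 4 matches to CCNCNCCC, of which 3 overlap each other. A GATA word was found in 8718 of 32851 windows (26.5%) and in 13 of the 30 windows (43.3%) of red cell genes. CCNCNCCC was found in 15089 (45.9%) and in 16 of 30 (53.3%). A match is a description of these letters only.

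The last named genes of the joint comparison have other roles. Wasf1, the actin regulator WAVE1, was 3.61 and 3.61 in KK, 3.97 and 3.48 in NOD and 3.43 and 3.52 in NON, against 2.91 to 3.61 (median 3.24). The 3 strain means were the highest of the 28 and the arrays overlapped, with a difference of 0.35 ± 0.06 (limma, adjusted p = 0.00737). The Wasf1 difference was 0.27 (0.0755) without NOD array 1 and 0.35 (0.158) without the KK strain. These are low levels, and among probe sets with a mean level of at least 5 no joint call remained. The transcript 1700020D05Rik was 4.62 and 5.08 in KK, 3.04 and 3.08 in NOD and 4.62 and 3.82 in NON (2.86 to 4.25 in the others). Its joint difference of 0.90 ± 0.17 (adjusted p = 0.0287) came with a difference of -0.08 in NOD, which ranked 26th of 28. The joint difference was 0.98 (adjusted p = 0.0242) without KK array 1, and 0.50 without the KK strain, where it did not pass.

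The labels number the arrays, and KK and NOD lay among numbers up to 1038 with 20 other strains, NON among higher numbers with 6. What the numbers stand for is not stated. With the range of numbers as a covariate, the 6 named genes passed in limma, Lep with 1.59 (adjusted p = 0.000572). Within the lower numbers Lep passed (1.75, 0.00829), while Slc4a1 (1.84, 0.128), Trim10 (0.77, 0.284), Bpgm (0.98, 0.563), Wasf1 (0.40, 0.0905) and 1700020D05Rik (0.79, 0.633) did not. Within the higher numbers, where NON was the only strain, the differences were 1.27, 2.21, 1.31, 1.51, 0.28 and 1.15 in the same order and none passed.

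Several genes just outside the threshold passed when KK array 1 was left out. Mkrn1, a RING finger ubiquitin ligase, had a difference of 0.80 (limma, adjusted p = 0.0524) with both KK arrays and 0.90 (0.0237) without array 1. Cdr2, an onconeural antigen, was 5.59 and 6.86 in KK, 6.13 and 6.31 in NOD and 6.68 and 6.58 in NON, against 4.24 to 6.19. Its adjusted p was 0.0779 with array 1 and 0.0104 without it. Mov10l1 was 4.69 and 5.11 in KK, 4.74 and 4.97 in NOD and 3.72 and 3.85 in NON, with no other array above 4.53, so NON was the strain inside the others' range (adjusted p = 0.0645, and 0.032 without KK array 1).

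No probe set had all 6 arrays on 1 side of the 49 other arrays. At the level of strain means, 16 probe sets (0.0717%) had KK, NOD and NON above all 25 other strains and 2 (0.00896%) below all of them. The 16 held Bpgm with 2 probe sets, Alas2, Fech, Hba-a1, Fam220a, Cdr2, Wasf1, Syngr4, Htra3 and Oprm1 and 5 probe sets with no single symbol. The 2 below were Sumf1, the enzyme that activates sulphatases, and Khdc1b. Fam220a was 7.12 and 6.75 in KK, 5.93 and 7.07 in NOD and 6.94 and 6.77 in NON, inside the arrays of the others (4.16 to 7.54), and did not pass (adjusted p = 0.242).

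The lists of metabolic and vessel wall genes described next held no called member in the 3 strains together, where 0.0358% of all probe sets were called. None of 21 measured insulin signalling genes was called, and the list's median was 0.06. Socs3 and Trib3, both inhibitors of the pathway, were higher at an unadjusted p below 0.05, as were 3.46% of all probe sets. Socs3 was 8.18 in NOD array 1 and 4.77 in NOD array 2, against a median of 4.59 and at most 6.43 in the other strains. Its joint difference thus rested in part on NOD array 1, and the value without that array is not given here. Of 19 genes of glucose use and glycolysis 0 were called and 0 passed at an unadjusted p below 0.05. None of 11 genes of glycation and the polyol pathway and none of 23 oxidant defence genes was called. In the wall itself 0 of 15 smooth muscle contractile genes, 0 of 17 endothelial genes and 0 of 23 genes of the elastic fibre and matrix were called, with medians of 0.22, 0.21 and 0.21. Among the matrix genes Col5a1 (0.99) and Fbln5 (0.65), which encode a fibrillar collagen chain and an organiser of elastic fibres, were higher at an unadjusted p below 0.05 and did not pass.

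Immune lists gave no calls in the joint comparison. None of 19 complement genes was called (0.0358% of all probe sets were). Of the 19 differences 17 were positive with a median of 0.28, against 51.3% positive and a median of 0.0045 over all probe sets. By array the list median was 0.20 and 0.36 in KK, 0.76 and -0.06 in NOD and 0.42 and 0.17 in NON. The other arrays ran from -0.49 to 0.63, so only NOD array 1 lay above them. C4b, the classical pathway component C4, was 10.78 and 10.09 in KK, 11.12 and 10.48 in NOD and 10.25 and 10.01 in NON, against 6.34 to 10.99 (median 8.85). The 3 strain means ranked 3, 1 and 4 of 28, and the difference of 1.66 did not pass (limma, adjusted p = 0.959). No member of the MHC list (21 measured of 25), the type I interferon list (14), the interferon-gamma list (16), the T and B lymphocyte list (15) or the macrophage list (20) was called.

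**Figure D3:**
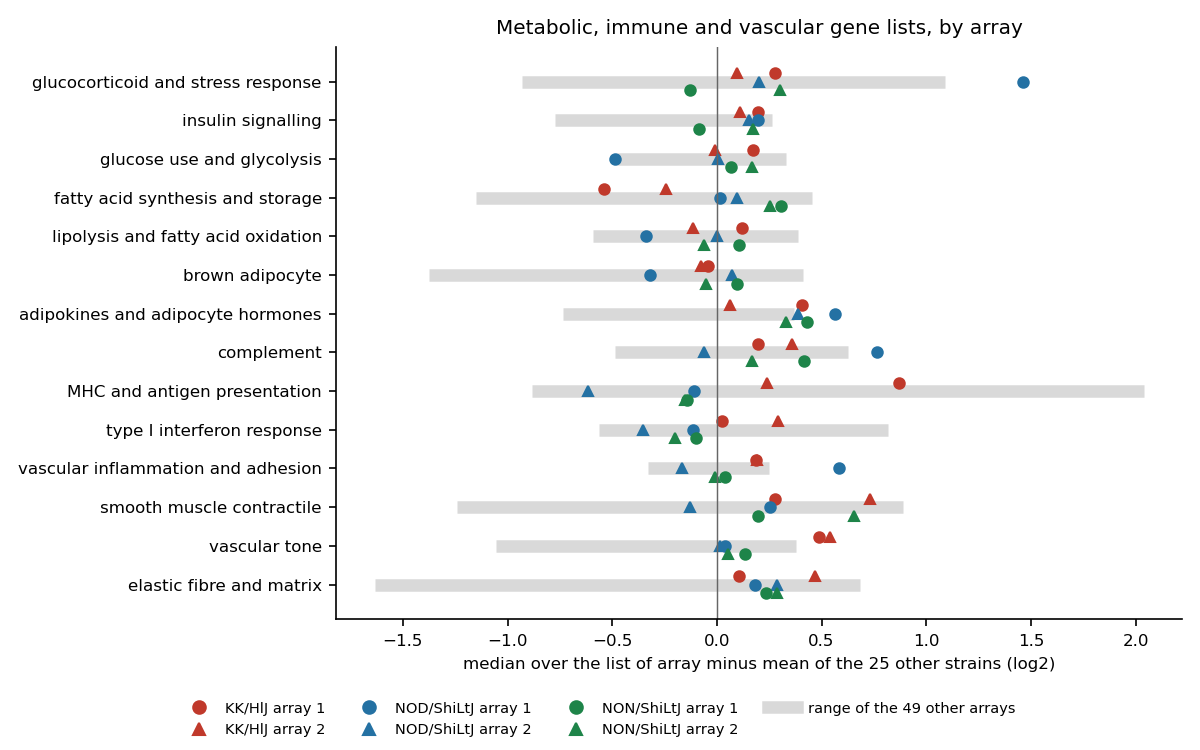
Median over each of 14 lists of an array's level minus the mean of the 25 other strains (log2), for the 6 arrays of KK, NOD and NON, with the range of the 49 other arrays as a grey bar. NOD array 1 lies outside the bar for the glucocorticoid list (1.46), and both KK arrays lie above it for vascular tone (0.49 and 0.54).

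KK alone gave the longest list of calls, and most of it rested on array 1. In limma's fit 131 probe sets were called in KK against the 25 other strains (0.587%), 127 higher (0.569%) and 4 lower (0.0179%). Leaving out KK array 1 gave 29 higher and 5 lower, with 18 of the 131 kept. At an unadjusted p below 0.05, 18.2% of probe sets passed in KK, 1904 higher (8.53%) and 2164 lower (9.69%). The spread in this test came from the other strains, because a single strain has none of its own.

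Of the 10 largest increases named in KK, 7 were kidney genes high in array 1, and the other 3 were Lbp, Lox and Slc4a1. Acsm2, a medium-chain acyl-CoA synthetase of kidney and liver, was 9.12 in KK array 1 and 4.88 in array 2, against 2.72 to 8.85 (median 2.98) in the others, a difference of 3.89 ± 0.57 (adjusted p = 0.000865). Kap, the androgen-regulated kidney protein, was 7.92 and 4.14 (3.10, adjusted p = 0.00139). Miox, the inositol oxygenase of the proximal tubule, was 9.09 and 3.11 (2.81, 0.00703), and its difference was -0.18 without array 1. Dnase1, Klk1, Slc22a6 and Slc22a12, the last pair organic anion and urate transporters of the tubule, were between 7.77 and 8.82 in array 1 and between 3.77 and 4.52 in array 2. In a kidney list of 12 genes, added after the data had been seen, 9 of 11 measured genes were called higher in KK, and the kidney score was 2.51 in array 1 and 0.229 in array 2, against at most 2.27 in the other arrays. Without array 1 the differences were 1.77 for Acsm2, 1.21 for Kap, 0.42 for Dnase1 and 0.47 for Klk1. They were 0.38 for Slc22a6 and 0.94 for Slc22a12. The part of kidney tissue on array 1 in each KK result was not tested.

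The calls kept without array 1 included the red cell genes and leptin. Lep had a difference of 2.14 in KK (limma, adjusted p = 0.00233) and 2.93 without array 1 (3.60e-05). Slc4a1 was 2.66 ± 0.45 higher (0.00266) and 2.79 higher without array 1 (0.00243). Trim10 gave 1.34 (0.000248) and 1.48 (3.60e-05), and 1700020D05Rik 1.71 (2.56e-08) and 1.94 (6.86e-10). For Trim10, Slc4a1 and 1700020D05Rik, both KK arrays were above all 49 other arrays, which was the case for 52 probe sets (0.233%), and 19 (0.0851%) had both below.

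Other kept calls were of different kinds. Cdh15, the cadherin of myogenic cells, was 4.55 and 5.07 in KK, against 2.74 to 3.96 (median 3.14), a difference of 1.64 (limma, adjusted p = 3.64e-07) and of 1.90 (1.49e-08) without array 1. Slc25a29, a mitochondrial basic amino acid carrier, was 6.60 and 6.09, with no other array above 6.00 (2.51, adjusted p = 0.00139, and 2.25, 0.00524, without array 1). Ripk4, a kinase of epidermal differentiation, was 4.25 and 4.14 with the others at most 3.76, and Rasl10a was 4.44 and 4.18 with the others at most 3.96. Lox, the enzyme that cross-links elastin and collagen, was 4.13 and 8.15 in KK on the probe set that was called, against 2.82 to 5.40. That difference was 2.98 ± 0.24 (3.17e-08), while the other 2 Lox probe sets gave -1.16 and -0.69, so the direction for the gene is not settled.

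Lbp, the plasma protein that binds bacterial lipopolysaccharide, was 9.66 in both KK arrays and above all 49 others, which ran from 4.68 to 9.57 (median 6.36). It was 3.22 ± 0.75 higher (limma, adjusted p = 0.04), and 3.23 higher without array 1, with an adjusted p of 0.0919. Genes chosen after their values were seen add to the set with both KK arrays outside the others. Sncg, the gamma synuclein of nerves and fat cells, was 8.62 and 9.10, and Sox9, a cartilage and matrix transcription factor, 4.34 and 4.39. Irf4, an interferon regulatory factor of lymphocytes and brown fat, was 3.81 and 3.54, below the 3.86 to 8.49 of the others.

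Of the 4 transcripts called lower in KK, Scd1 is the one of lipid metabolism. Scd1, the stearoyl-CoA desaturase that makes monounsaturated fatty acids, was 11.25 and 11.40 in KK, against 11.22 to 13.25 (median 12.73) in the others. It fell by 1.33 ± 0.31 on the log2 scale, or 2.52-fold (limma, adjusted p = 0.0359), and without array 1 its difference was -1.26 (0.116). Man2a1, a Golgi mannosidase, was 4.21 and 5.32 (4.54 to 8.57, -2.63 ± 0.54, 0.0135) and gave -2.07 (0.166) without array 1. Tank, an adaptor of the TBK1 kinase, gave -1.17 with and -0.47 without array 1. Mrps33, a mitochondrial ribosomal protein, was 7.60 and 7.30 (6.73 to 9.44) and was called both with array 1 (-1.55, 0.0257) and without it (-1.70, 0.0324).

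Fatty acid synthesis was the list with the most lower members in KK. Of 20 measured genes, Scd1 was called lower, 7 were lower and 1 higher at an unadjusted p below 0.05, and the median was -0.59. Over all probe sets 9.69% were lower and 8.53% higher at that p, with a median of 0.04. Elovl6, the elongase of palmitate, was 7.29 and 7.16 in KK, against 5.47 to 11.02 (median 10.05), a difference of -2.55 that did not pass (adjusted p = 0.22). Fasn, the fatty acid synthase, was 11.81 and 10.76 (10.97 to 12.67 in the others) with a difference of -0.73. Me1, the malic enzyme that supplies NADPH, was 8.24 and 8.77 in KK. It was among 4 of the 20 genes with their lowest mean of all 28 strains in KK. Over all probe sets, 1607 (7.2%) had KK below the 25 other strains, with NOD and NON left aside. The list medians of the 2 KK arrays, -0.54 and -0.24, lay inside the -1.15 to 0.46 of the other arrays. In NON, the median of the same list was 0.29, with 16 of 20 differences positive (52.0% over all probe sets).

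Several genes of vascular tone ranked high in KK without passing the threshold. None of 16 measured genes was called, against 0.587% of all probe sets, and 4 were higher at an unadjusted p below 0.05 (8.53% of all). In 5 of the 16, KK had the highest mean of all 28 strains. Over all probe sets, 1740 (7.79%) had KK above the 25 other strains, with NOD and NON left aside. Npr1, the receptor of atrial natriuretic peptide, was 7.43 and 7.80, against 4.38 to 7.45 (median 5.49), a difference of 1.92 (limma, adjusted p = 0.228). Ddah2, which clears an inhibitor of nitric oxide synthase, was 7.73 and 7.40 (difference 1.13), and Ace, the angiotensin-converting enzyme, 7.20 and 6.99 (0.96). Nos3, the endothelial nitric oxide synthase, was 8.24 and 7.90 against a median of 7.11 (5.29 to 8.28). The list medians of both KK arrays, 0.49 and 0.54, were above the highest of the 49 other arrays, 0.38. In the smooth muscle list Kcnmb1, the beta subunit of the calcium-activated potassium channel, was 6.76 and 7.35 in KK and at most 6.74 in the others, a difference of 1.98 that did not pass (adjusted p = 0.243).

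Lymphocyte and MHC genes in KK differed between its arrays. Ighm, the immunoglobulin mu chain, was the only lymphocyte gene called (2.35, limma, adjusted p = 0.0429), at 8.51 in array 1 and 3.28 in array 2. The thymocyte score was 2.86 in array 1 and -0.64 in array 2, and the hepatocyte score 2.90 and 0.48. SJL/J array 1, which was also high in the kidney score, had 2.58 for thymocyte and 2.80 for hepatocyte. The part of thymocyte and hepatocyte genes in the KK calls was not tested, and the values without KK array 1 stand above. Airway and muscle genes also differed within strains. The skeletal muscle score was 1.94 and 0.12 in KK, 0.22 and -2.93 in NOD and -0.32 and 3.37 in NON, and the lung score -1.20 and 1.28, -1.53 and -1.33, and 1.89 and -0.94. Over strains, no score other than the erythroid one passed in the exact permutation test, with an adjusted p of 0.0591 or more for each of the 8.

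**Figure D4:**
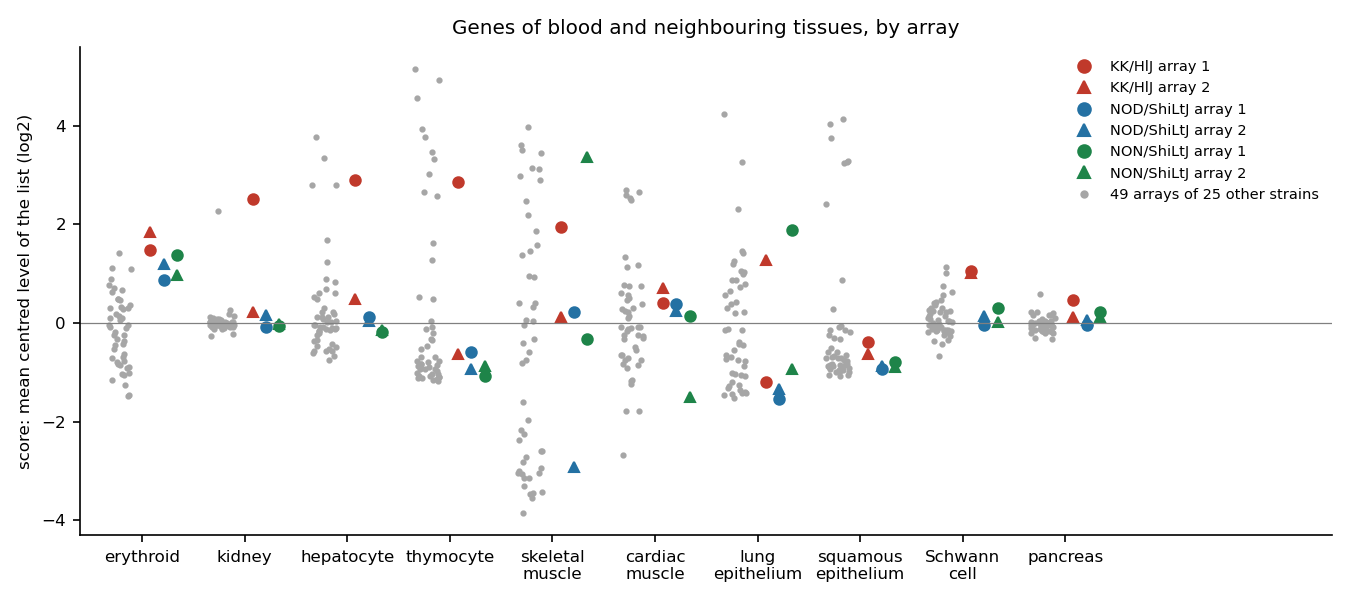
Scores of 10 marker lists (mean centred log2 level of the list's genes) by array, with KK, NOD and NON coloured and the 49 other arrays in grey. The erythroid score of the 6 arrays runs from 0.86 to 1.84, against at most 1.42 in the others, and KK array 1 stands high on the kidney (2.51), hepatocyte (2.90) and thymocyte (2.86) scores. SJL/J array 1, in grey, has 2.27, 2.80 and 2.58 on the same scores.

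NOD alone gave 8 calls (0.0358%), 4 higher (0.0179%) and 4 lower (0.0179%), of which 3 were kept without NOD array 1. At an unadjusted p below 0.05, 2.54% of probe sets passed, 354 higher (1.59%) and 212 lower (0.95%). Tmem14c, a mitochondrial inner membrane protein required for haem synthesis, was 6.15 and 6.33 in NOD. It was 10.31 and 10.03 in KK, 9.98 and 9.89 in NON and 9.14 to 10.65 (median 10.08) in the others. Both NOD arrays lay below every other array, and Tmem14c fell by 3.75 ± 0.29, or 13.5-fold (limma, adjusted p = 1.30e-08), with -3.66 (2.26e-08) without array 1. Rmnd1, required for mitochondrial translation, was 3.55 and 4.16, against 5.33 to 8.80 (median 7.81) in the others, and fell by 3.92 ± 0.51, or 15.2-fold (adjusted p = 0.000331, and 0.000708 without array 1). Msrb2, the mitochondrial methionine sulfoxide reductase, was 4.93 and 5.48 against 5.95 to 7.51 and fell by 1.69 ± 0.29, or 3.23-fold (0.0127, and 0.0298 without array 1). All 3 encode mitochondrial proteins, and the share of such genes among all probe sets was not counted. Each was measured by 1 probe set, so no second probe set could be compared. The falls are therefore known for those probe sets only.

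The other 5 NOD calls rested on array 1. Slc25a25, a calcium-regulated mitochondrial carrier, was 7.99 and 4.52 in NOD and at most 6.07 in the other strains (2.24, limma, adjusted p = 0.0116; 0.50 without array 1). Cyp26a1, which degrades retinoic acid, was 4.93 and 3.55, Ptx3, a soluble pentraxin, 4.89 and 3.09, and Cxcl1, a neutrophil chemokine, 4.28 and 3.08. Ucp1 was 9.75 in NOD array 1 and 12.72 in array 2, against 12.10 to 12.95 in the others. It fell by 1.42 ± 0.18 with both arrays (0.000226), and the difference was 0.07 without array 1. Each of the 5 had an adjusted p of 1.00 without array 1.

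Array 1 of NOD differed from array 2 over whole lists. The median of the glucocorticoid and stress list was 1.46 in array 1 and 0.20 in array 2, against -0.93 to 1.09 in the other arrays. Fkbp5, a target of the glucocorticoid receptor, was 10.11 in array 1 and 7.31 in array 2. The list medians of array 1 were also above all 49 arrays for the circadian clock (0.66), complement (0.76) and vascular inflammation (0.58), and that of glycolysis was -0.48, below all 49. Pfkl, the liver phosphofructokinase, was 7.18 in array 1 and 9.90 in array 2, and Socs3, an inhibitor of cytokine signalling, 8.18 and 4.77. In the brown adipocyte list 1 of 11 genes was called lower in NOD (Ucp1), and Elovl3, the cold-induced elongase, was 5.10 in array 1 and 9.05 in array 2, and in KK 9.98 and 4.23. The part of these stress-responsive genes in the other NOD values was not tested.

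Without NOD array 1, 40 probe sets were higher and 4 lower. Among the added calls were genes of platelets, named after their values were seen. Clec1b, a platelet lectin receptor, was 4.31 in array 1 and 8.24 in array 2, with the others at most 6.66 (4.16, limma, adjusted p = 0.000333). Itga2b, the platelet integrin chain, was 7.29 in array 2 (2.71, adjusted p = 0.00257). These rest on 1 array and are not a difference of the strain in both.

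The candidate and antigen presentation genes held no call in NOD. None of 18 measured candidates at NOD diabetes loci was called, and none of 21 MHC and antigen presentation genes. Over all probe sets 0.0358% were called in NOD, so 0 calls in lists of this size say little about them. In the MHC list 17 of 21 differences were negative (median -0.36). Over all probe sets 48.7% were positive, with a median of -0.0068. The MHC list medians were -0.11 and -0.61 in the 2 NOD arrays. Both NOD arrays lay above all 49 others at 21 probe sets (0.0941%) and below at 17 (0.0761%). Among the first was Plek, the pleckstrin of platelets and leukocytes (6.48 and 6.30), and among the second Hey1, a Notch target, named after their values were seen.

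NON alone gave 7 calls (0.0314%), 5 higher (0.0224%) and 2 lower (0.00896%), and all 7 were kept when either NON array was left out. At an unadjusted p below 0.05, 2.4% passed, 423 higher (1.89%) and 112 lower (0.502%). Plau, the urokinase plasminogen activator, was 5.82 and 5.70 in NON, against 3.06 to 5.09 (median 3.55) in the others, with 3.47 and 3.39 in KK and 3.27 and 3.72 in NOD. Both NON arrays were above all the others, and this Plau probe set rose by 2.18 ± 0.33, or 4.52-fold (limma, adjusted p = 0.00249). A second Plau probe set, at 4.15 and 4.74, gave 0.97 and did not pass (0.447). Trim10 (1.24, adjusted p = 0.00181) and 1700020D05Rik (1.08, 0.000303) were called in NON as in KK. KK and NON shared 3 called probe sets, which is 3 of the 131 in KK and 3 of the 7 in NON, while KK and NOD shared 0 and NOD and NON 0. These comparisons share the 25 other strains.

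Hsd17b12, the ketoreductase of fatty acid elongation, was 6.68 and 6.17 in NON, against 7.49 to 11.20 (median 10.47) in the others, and was below all of them. It fell by 3.94 ± 0.50, or 15.4-fold (limma, adjusted p = 0.000303), while its other probe set, at 8.77 and 8.26 inside the others' 6.99 to 10.48, gave -0.91 (1.00). Dnajb6, a chaperone that holds unfolded proteins, was 4.65 and 5.42 against 5.90 to 7.69 (-1.93 ± 0.31, 0.00772), and its other probe sets gave 0.21, -0.08 and 0.67. For each of these genes 1 probe set passed and the others did not. NON was the only one of the 3 strains among array numbers above 1038, with 6 other strains. Within those arrays the differences were 2.02 for Plau, -3.78 for Hsd17b12 and -2.05 for Dnajb6 and none passed in limma. With the range of numbers as a covariate they were 1.95 (adjusted p = 0.0188), -3.67 (0.00334) and -2.05 (0.0142). Both NON arrays lay above all 49 other arrays at 43 probe sets (0.193%) and below at 34 (0.152%).

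**Figure D5:**
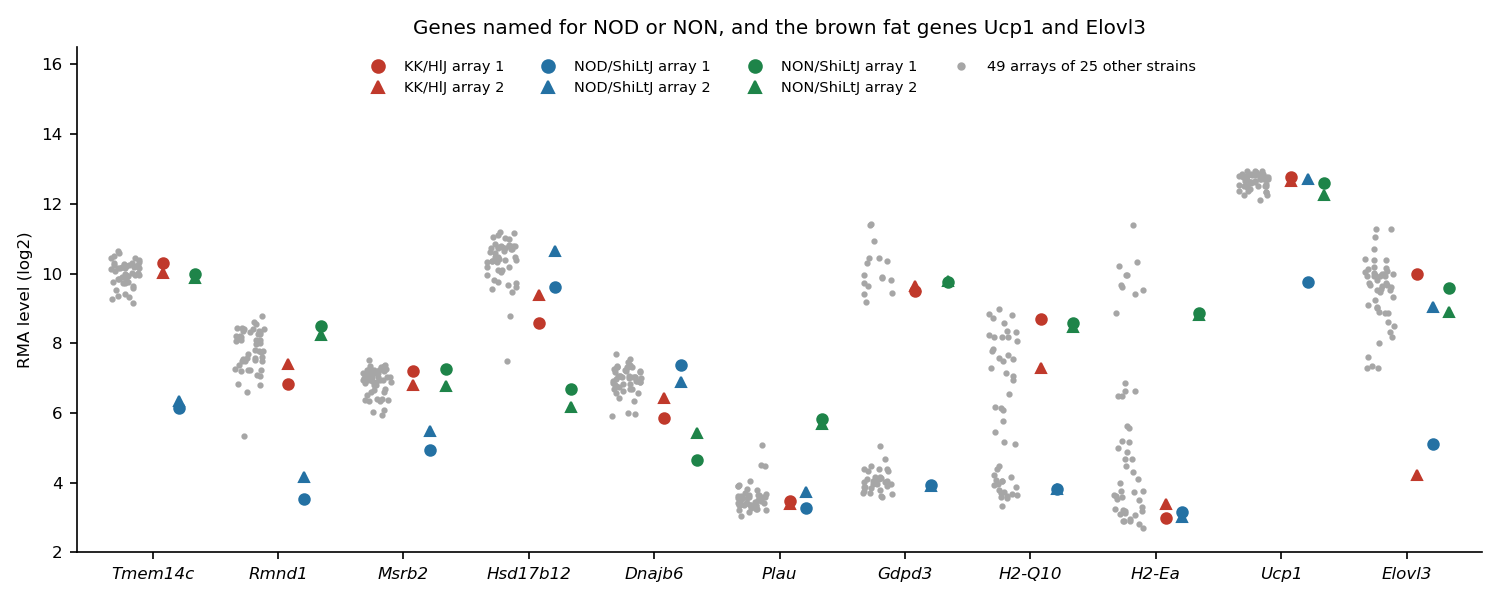
RMA levels (log2) of 11 genes in each array, coloured for KK, NOD and NON and grey for the 49 other arrays. Tmem14c, Rmnd1 and Msrb2 are low in both NOD arrays, Plau is high and Hsd17b12 and Dnajb6 are low in both NON arrays. Ucp1 is low in NOD array 1 and Elovl3 in NOD array 1 and KK array 2.

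The 3 strains were also compared with each other, in a fit of all 55 arrays that takes the spread from arrays of the same strain. KK and NOD differed at 366 probe sets (1.64%), with 173 higher in KK (0.775%) and 193 lower (0.864%). Of the 366, 47 were kept without KK array 1 and 43 without NOD array 1, against 343 without KK array 2 and 275 without NOD array 2. KK and NON differed at 98 (0.439%), 44 higher (0.197%) and 54 lower (0.242%), of which 17 were kept without KK array 1 and 95 without KK array 2, and 15 and 18 without NON array 1 and 2. NOD and NON differed at 55 (0.246%), 24 higher in NOD (0.107%) and 31 lower (0.139%), of which 27 were kept without NOD array 1 and 46 without NOD array 2, and 23 and 27 without NON array 1 and 2.

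The largest contrasts were genes with low levels in some strains and high levels in others. Gdpd3, a lysophospholipase D, was 9.51 and 9.65 in KK and 9.74 and 9.80 in NON, but 3.94 and 3.90 in NOD, against 3.60 to 11.41 (median 4.17) in the others. The NOD values thus lay with the lower group of the other strains, and the difference was 5.66 ± 0.72 between KK and NOD (limma, adjusted p = 3.02e-05) and -5.85 ± 0.72 between NOD and NON (1.32e-05). H2-Q10, a secreted MHC class I molecule, was 8.70 and 7.30 in KK and 8.57 and 8.48 in NON, but 3.83 and 3.82 in NOD (3.33 to 8.99 in the others). It was 4.70 ± 0.54 lower in NOD than in NON on the log2 scale (a NOD minus NON difference of -4.70, adjusted p = 3.84e-06). MHC class I genes resemble each other, so a probe set may read more than one of them.

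H2-Ea encodes the alpha chain of the MHC class II molecule I-E, which NOD mice are known not to express. It was 2.98 and 3.39 in KK, 3.17 and 3.01 in NOD, and 8.86 and 8.81 in NON, with the other strains anywhere from 2.69 to 11.38 (median 4.31). KK and NOD were both at the low end and NON was high, with differences of -5.65 ± 0.79 for KK minus NON (limma, adjusted p = 0.000303) and -5.75 ± 0.79 for NOD minus NON (8.35e-05). A second H2-Ea probe set had the same order, with 4.47 and 4.78 in KK, 4.41 and 5.13 in NOD and 6.92 and 7.04 in NON. H2-Ea remained different without KK array 1 (-5.45, 0.00705) and without NOD array 1 (-5.83, 0.00329).

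Further differences between pairs were as follows. Pdxdc1 was 6.02 and 7.63 in KK, 3.52 and 3.09 in NOD and 3.30 and 3.77 in NON, which made it 3.52 ± 0.42 higher in KK than in NOD (limma, adjusted p = 1.23e-05), although its other probe sets disagreed in sign. Hal, the histidine ammonia-lyase, was 6.39 and 7.22 in KK and 3.38 and 3.51 in NON (3.36 ± 0.50, 0.000597). Psmc3ip, a partner of the meiotic recombinases, was 6.45 and 7.06 in NOD and 3.94 and 4.05 in NON (2.76 ± 0.21, 1.16e-09). Ndel1, a dynein regulator, was 6.01 and 6.59 in NOD and 3.36 and 3.38 in NON (2.93 ± 0.38, 3.45e-05), and Cap1, an actin cyclase-associated protein, 9.41 and 9.18 in NOD and 6.69 and 6.52 in NON (2.69 ± 0.33, 1.45e-05). Rmnd1, Tmem14c and Hsd17b12 differed in the same directions between the strains as against the other strains.

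Some pair differences rested on 1 array. Irf4 was 11.00 and 6.74 in NOD and 3.81 and 3.54 in KK, with a difference of -5.20 ± 0.85 (limma, adjusted p = 0.00103) that was -3.07 (0.129) without NOD array 1. Hamp2, a hepcidin paralogue, was 12.08 and 6.69 in NOD, 5.91 and 5.90 in KK and 5.28 and 4.85 in NON. It was called between NOD and both other strains, and in neither case without NOD array 1 (adjusted p = 0.613 against KK and 1.00 against NON). Acsm2 was called higher in KK than in NOD (3.70, 0.0457) and not without KK array 1 (1.58, 0.828). Ctla2a, a cysteine protease inhibitor, was 4.52 and 7.88 in KK and 8.15 and 10.26 in NOD. It was called with all arrays (-3.00, 0.0342) but not without KK array 1 (0.812).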

How the data were processed

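RNA of 55 arrays from 28 classical inbred strains was used. The deposited values are log2 levels, 1 per probe set and array, made by the authors with GCOS and RMA per the submitters' processing notes. Versions of these steps and the build used were not given in the sources used here. Array medians lay between 4.55 and 4.87. Of 22416 probe sets, 89 controls were left out and 22327 tested, of which 17783 carried 1 gene symbol in the platform annotation, 284 several and 4260 none listed. A GRCm38.p6 gene table held 17759 of the named probe sets and changed 0 symbols.

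KK, NOD and NON were compared with 25 strains on 1 mean per strain with limma 3.58.1 in R 4.3.3 (26 residual degrees of freedom together, 24 for each strain alone). Pairs of strains were compared on the 55 arrays with a mean per strain (27). P-values were adjusted over all 22327 probe sets and called below 0.05. Marker list scores were tested over strains by exact permutation. The procedures were tested on simulated data.

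The strains and gene lists were chosen with earlier results of these data known, so the lists are descriptions, and each gene in a list is represented by its brightest probe set. Only probe sets with 1 symbol were named, a gene being represented by its smallest p. For the 3 strains together these were the 15 largest each way among the called or, with fewer than 10 called, the 20 with the smallest p, for a strain alone the 10 largest each way, and for a pair the 5 largest each way. Called list members (up to 4) and up to 2 others were added. Further genes were named after their values were seen: those that lie outside the other strains in both arrays, those called only without an array, and further members of the lists. Promoters came from RefSeq tables.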

Additional observations from a re-analysis of the deposited data

Results flagged for a closer look

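Several named genes differed from the other strains by different amounts in KK, NOD and NON. For these genes the difference between 2 of the strains was also called on the same arrays (limma on 55 arrays, adjusted p below 0.05 over all probe sets). The values are log2 differences between 2 strains. Between KK and NOD these were Trim10 (1.09), 1700020D05Rik (1.79), Acsm2 (3.70), Lbp (3.27), Kap (3.18), Lox (2.97), Rmnd1 (3.28), Tmem14c (3.92) and Msrb2 (1.80), each higher in KK, and Man2a1 (-2.89), Mrps33 (-1.47) and Tank (-1.27), each lower in KK. Acsm2 and Kap were higher in KK array 1 than in array 2, and the Lox value comes from 1 of 3 probe sets.

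Between KK and NON, Slc25a29 (2.50), Hsd17b12 (2.56), Lbp (2.997) and Lox (3.01) were higher in KK, and Mrps33 (-1.65) and Plau (-2.33) were lower in KK. Lbp, Mrps33 and the named Lox probe set thus separated KK from both NOD and NON. Both KK arrays lay above the other strains for Lbp and inside their range for Mrps33.

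Between NOD and NON, Hsd17b12 (3.71) and Dnajb6 (2.10) were higher in NOD, and 1700020D05Rik (-1.16), Rmnd1 (-4.51), Tmem14c (-3.69), Msrb2 (-1.81) and Plau (-2.26) were lower in NOD. Rmnd1, Tmem14c and Msrb2 were low in both NOD arrays against KK and against NON. The pairs share the arrays of each strain, so these tests are not independent of each other. The genes were named for their differences on the same arrays, so the tests are not independent of that choice either.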

How the results depend on the processing

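The means of KK, NOD and NON each rest on a pair of arrays. Of the named genes' values under the alternatives, 1941 kept direction and side of the threshold, 182 no longer passed, 64 newly passed and 6 reversed. Many of these alternatives left out only 1 of the other strains. With strain as a random block the 3 strains together had 17 higher and 1 lower. With a mean for each strain on arrays they had 123 and 46, KK 784 and 764 (24 and 25 without its array 1), NOD 103 and 68, NON 63 and 32. Leaving out strains with 1 array gave 4 below all others. Within array numbers up to 1038 there was 1 lower together and 9 higher in NOD, and within those above 1038 limma called 0 higher together and 0 and 0 in NON. Without thymocyte- or squamous-rich arrays KK had 54 and 24, NOD 9 lower, and 27 and 11 lay above and below all others. With 4 scores as covariates there were 14 higher together, 56 and 0 in KK, 88 and 61 for KK against NOD, 20 and 16 for KK against NON. Median-centred arrays gave 1 higher in NOD, 0 below all others and 95 higher for KK against NOD. With a mean level of at least 5 there were 0 higher together, 0 and 0 in KK, 0 higher in NOD, 0 higher in NON, 7 above and 0 below all others, 32 lower for KK against NON, 13 and 19 for NOD against NON. With 1 probe set per gene 6 lay above and 1 below all others. The robust trended fit gave 8 higher in NOD. Chosen after seeing the data, leaving out kidney-rich arrays gave 15 higher together and 37 in KK, and the erythroid covariate gave 1 together. With only the 4 arrays of a pair, KK against NOD and KK against NON had 0 and 0, NOD against NON 0 and 4. Before adjustment, and with all arrays, limma had 952 together, 4068 in KK, 566 in NOD and 535 in NON at p below 0.05. Without KK array 1 the lung score was 0.15 and the hepatocyte score -0.13, reversed. Leaving out 1 array or strain gave 4 to 13 higher and 0 to 2 lower together, 29 to 2692 and 4 to 3042 in KK, 4 to 200 and 4 to 85 in NOD, 5 to 34 and 2 to 6 in NON, 14 to 35 above and 2 to 5 below, 24 to 1372 and 25 to 2063 for KK against NOD, 6 to 1167 and 8 to 1906 for KK against NON, and 8 to 174 and 14 to 92 for NOD against NON. Leaving out BALB/cJ, BTBR T<+> tf/J, C57L/J or SJL/J gave 8, 31, 9 and 9 lower in KK. Miox in KK ranged from -0.18 to 5.80 when 1 array was left out and was -0.063 without the thymocyte- or squamous-rich arrays and -0.069 without the kidney-rich ones. In NOD, Ptx3 ranged from -0.13 to 1.66 and Ucp1 from -2.90 to 0.070 when 1 array was left out. Apart from fewer arrays or probe sets, the cause of each change was not tested.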
